A study of Mus musculus with 12 samples.

Results

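The 10 genes described here take fatty acids into the cell, store them as triglyceride and release them again. They were chosen by name as Cd36, Lpl, Fabp4, Fabp5, Pnpla2, Lipe, Mgll, Agpat2, Dgat1 and Dgat2, and all 10 were among the 14398 genes of the count table and passed the filter on low counts, which kept 14266. The RNA is that of adipocyte precursors, which are fibroblast-like cells of fat tissue able to become fat cells. The cells came from male C57Bl6/J mice 6 to 8 weeks old, with 3 libraries in each of 4 groups and 12 in all. VWAT_HFD is perigonadal (visceral) fat on day 3 of a high-fat diet labelled 60% lard, and VWAT_SD is the same fat on a standard diet, labelled day 0. SWAT_HFD and SWAT_SD are inguinal subcutaneous fat on the same diets. Tissue of 3 mice was pooled for each library, and no allele or transgene is named. Flow cytometry selected cells positive for Sca1, CD34 and CD29 and negative for CD31 and CD45, whatever their CD24, so a library can hold a mixture of precursor states. The day label goes with the diet, so the day of collection and the diet cannot be told apart. Nothing in the labels says that the pools were collected separately, so the p-values measure the spread between these pools.

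A fat cell builds its triglyceride from fatty acids that lipoprotein lipase (Lpl) frees from circulating lipoproteins, that CD36 helps across the membrane and that the binding proteins Fabp4 and Fabp5 carry in the cytosol. AGPAT2 makes phosphatidic acid, and DGAT1 and DGAT2 add the last fatty acid to diacylglycerol. Release runs through 3 lipases in turn, with ATGL (Pnpla2) acting on triglyceride, hormone-sensitive lipase (Lipe) on diacylglycerol and monoglyceride lipase (Mgll) on the last ester. Many of these genes are induced by PPAR gamma as precursors turn into fat cells.

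Gene counts per library ranged over 17.6 to 56.1 M (M, 1e6 counts). The 10 genes took 0.148 to 0.22% of them, and Lpl alone 0.12 to 0.179%. Of the genes behind the positive gate, group means were 993 to 1557 CPM (counts per 1e6 counts, scaled between libraries by TMM) for Cd34, 488 to 740.1 CPM for Itgb1, which encodes CD29, and 471 to 1115 CPM for Ly6a, which encodes Sca1. Ly6a was 2.21-fold lower in VWAT than in SWAT on HFD and 2.1-fold lower on SD (adjusted p = 0.00012 and 0.000218 by edgeR's quasi-likelihood test). Cd34 also passed as lower in VWAT on both diets, while Itgb1 passed as higher in VWAT on HFD. Cd24a, which encodes CD24, averaged 3.08 CPM in VWAT_HFD and 16.6 CPM in SWAT_HFD. On SD it averaged 2.55 CPM in VWAT and 13.6 CPM in SWAT, and it passed as lower in VWAT on both diets. Pdgfra, a mesenchymal marker outside the gate, averaged 776 to 1025 CPM. Ptprc, which encodes CD45, was between 0.129 and 6.93 CPM, the highest value being in a SWAT_HFD library, and Adipoq, a mark of mature fat cells, was between 0.0645 and 0.657 CPM. Pecam1, which encodes CD31, was between 1.44 and 8.66 CPM. Of 10 markers of mature fat cells, 6 were in the table, and their summed level was 2.32 to 7.14 CPM in VWAT_HFD, 3.45 to 7.13 CPM in VWAT_SD, 2.98 to 4.15 CPM in SWAT_HFD and 2.06 to 3.27 CPM in SWAT_SD. Of 7 mesothelial markers 5 were in the table, at 1.79 to 7.34, 3.45 to 5.61, 2.21 to 4.33 and 2.22 to 4.01 CPM in the same order of groups, but they did not move together. Msln averaged 0.892 and 1.13 CPM in VWAT_HFD and VWAT_SD, against 0.0173 and 0.00722 CPM in SWAT_HFD and SWAT_SD, and Upk3b and Upk1b were also higher in VWAT, while Krt19 was lower. Msln was at 0 in at least 1 library of each SWAT group. All 8 mural markers were in the table, and their sum was 118 to 136 CPM in VWAT_HFD, 128 to 155 CPM in VWAT_SD, 76.6 to 112 CPM in SWAT_HFD and 108 to 131 CPM in SWAT_SD. Des, Myh11 and Acta2 were higher in VWAT on both diets, and Abcc9 and Kcnj8 were lower. Des averaged 70.8 CPM in VWAT_HFD and 8.29 CPM in SWAT_HFD, and Abcc9 averaged 4.09 CPM in VWAT_HFD and 56.4 CPM in SWAT_HFD. The part of these cells in the depot results was not tested. A list of cell division genes moved with the diet: the summed level of 12 mitosis genes was 126 to 492 CPM in VWAT_HFD against 27.7 to 42.6 CPM in VWAT_SD, and 110.1 to 157 CPM in SWAT_HFD against 15.8 to 26.7 CPM in SWAT_SD. Its part in the diet results was not tested. VWAT_HFD replicate 3 stood apart from its group: without it, 4266 genes passed the diet test in VWAT, against 2228 with it. SWAT_HFD replicate 2 had a summed level of 10 leukocyte markers of 46.1 CPM, above the 7.72 to 19.6 CPM of VWAT and the 12.4 to 14.3 CPM of SWAT_SD. Calls among the 10 genes that rest on either library are given with and without it.

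Promoter windows of RefSeq (build GRCm38.p6, 250 bases upstream of an annotated start, 7 windows) were at hand for 5 of the 10 genes. Those of the 3 lipases and of Cd36 are shown, because the lipases act in 1 chain but differed between the groups in different ways, and Cd36 showed the largest fold difference between the depots among the 10 genes. They lie at chr7:25390113-25390351 on the minus strand for Lipe, chr7:141454938-141455187 on the plus strand for Pnpla2, chr6:88724162-88724411 on the plus strand for Mgll and chr5:17835897-17836146 on the minus strand for Cd36, and each is written along the gene, 5′ to 3′. Of the Lipe window the 239 bases outside an annotated untranslated region are shown. Capitals mark matches, on either strand, to the E-box CACGTG, the nuclear receptor half-site AGGTCA, the CCAAT box CCAAT, the GC box GGGCGG and the forkhead motif TGTTTAC.
Lipe: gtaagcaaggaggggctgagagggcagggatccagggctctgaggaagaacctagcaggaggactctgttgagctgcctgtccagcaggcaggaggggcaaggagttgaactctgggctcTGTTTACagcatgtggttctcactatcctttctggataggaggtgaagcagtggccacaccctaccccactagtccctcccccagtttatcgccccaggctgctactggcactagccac
Pnpla2: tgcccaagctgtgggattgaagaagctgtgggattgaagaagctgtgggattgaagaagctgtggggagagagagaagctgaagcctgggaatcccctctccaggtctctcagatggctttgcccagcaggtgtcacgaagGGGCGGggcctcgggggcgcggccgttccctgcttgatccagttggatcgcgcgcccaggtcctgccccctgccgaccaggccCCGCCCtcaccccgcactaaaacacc
Mgll: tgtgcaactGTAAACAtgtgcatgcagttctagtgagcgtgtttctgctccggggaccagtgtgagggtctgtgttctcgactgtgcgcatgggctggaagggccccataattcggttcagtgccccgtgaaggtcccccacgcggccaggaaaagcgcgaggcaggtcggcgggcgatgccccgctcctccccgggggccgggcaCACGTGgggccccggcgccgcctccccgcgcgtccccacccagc
Cd36: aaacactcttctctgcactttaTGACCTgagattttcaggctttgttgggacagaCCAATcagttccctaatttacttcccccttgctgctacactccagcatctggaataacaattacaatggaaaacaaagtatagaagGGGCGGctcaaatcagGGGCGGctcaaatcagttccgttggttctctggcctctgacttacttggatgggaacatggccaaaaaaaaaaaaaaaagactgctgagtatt
The shares of all 32851 windows of this length that hold a match are 6.02% for CACGTG, 14% for AGGTCA, 33.8% for CCAAT, 32.7% for GGGCGG and 3.17% for TGTTTAC. The Lipe window shown held TGTTTAC 119 bases upstream of the start on the gene's strand, and the Mgll window shown held it on the opposite strand 241 bases upstream, with CACGTG 44 bases upstream. The Pnpla2 window held a GC box on each strand, 109 and 26 bases upstream. The Cd36 window held GC boxes 109 and 93 bases upstream, CCAAT 195 bases upstream and AGGTCA on the opposite strand 228 bases upstream. The Lipe and Cd36 windows shown belong to starts that lie inside the GENCODE span of the gene. Lipe and Mgll have 2 windows each, and 1 of each is shown. The other Lipe window, which lies in annotated untranslated sequence and is not printed, held CACGTG and 6 GC boxes, and the other Mgll window held 1 GC box. These matches describe the letters of the windows and say nothing of binding.

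Per kilobase of the longest coding transcript in GENCODE vM21, Lpl had the highest mean level of the 10 genes in every group, at 316, 277, 418 and 442 CPM per kilobase in VWAT_HFD, VWAT_SD, SWAT_HFD and SWAT_SD. Fabp4 came next in every group, at 110, 112, 251 and 172 CPM per kilobase. Dgat2 was the lowest in every group, at 1.54, 1.82, 1.57 and 1.82 CPM per kilobase. The other 7 genes lay between, and their order differed among groups: Fabp5 was 4th in VWAT_HFD and 9th in SWAT_SD, and Cd36 was 3rd in SWAT_HFD and 5th in both VWAT groups. The plot of levels by library shows all 120 values.

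**Figure D1:**
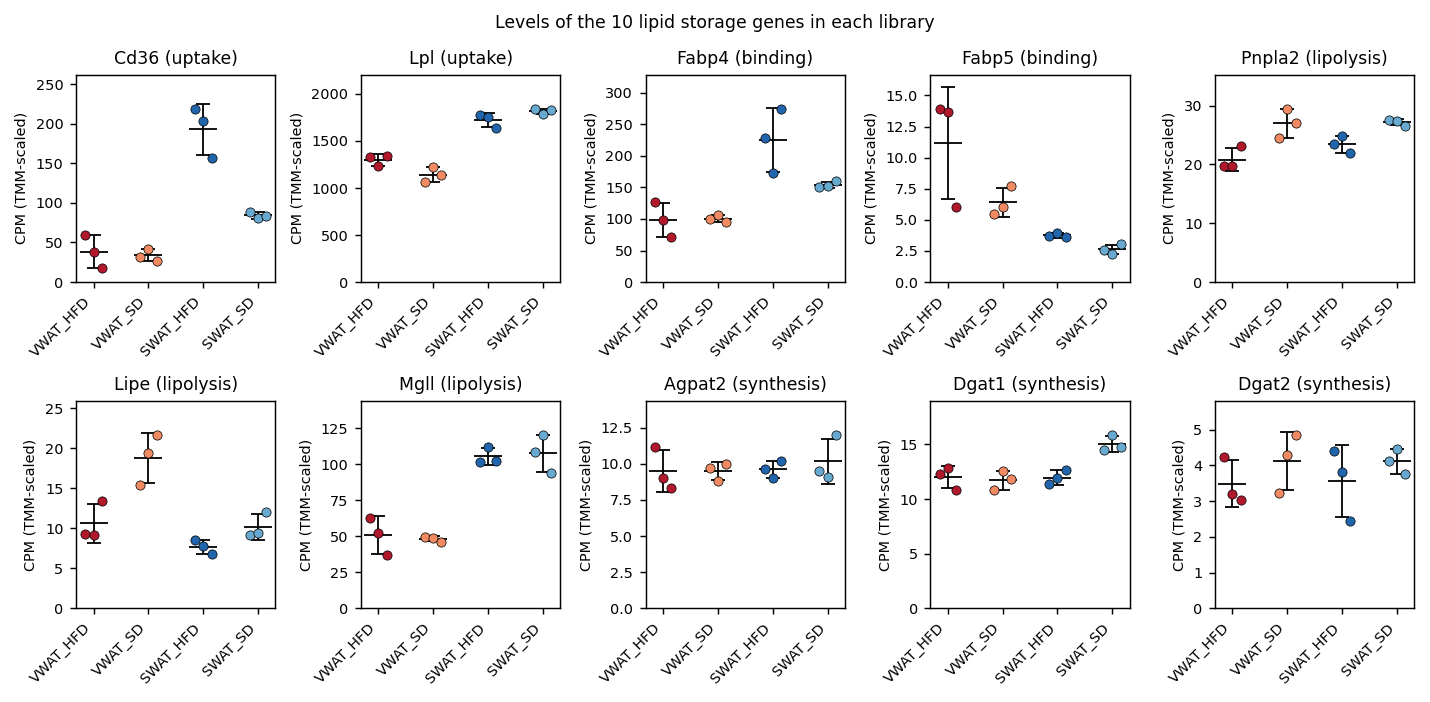
Levels of the 10 genes in CPM (TMM-scaled, linear axis from 0) in VWAT_HFD, VWAT_SD, SWAT_HFD and SWAT_SD. Points are libraries, 3 a group, and bars are the mean and SD; Cd36, Lpl, Fabp4 and Mgll sit lower in VWAT than in SWAT, and Fabp5 sits higher.

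In visceral precursors, the high-fat diet went with lower mRNA of the lipase Lipe. Pnpla2 also passed as lower and Fabp5 as higher, calls that held in 14 and 4 of 19 alternatives. In this comparison 3 of the 10 genes passed an adjusted p of 0.05, 1 higher and 2 lower, where 15.6% of the 14266 genes tested did so, 8.64% higher and 6.98% lower. The median log2 change of the 10 genes was 0.02, beside -0.017 for all genes. Libraries did not overlap for 3 of the 10 genes, 1 higher and 2 lower, where 33% of all genes did not overlap. Likewise 3 of the 10 had an unadjusted p under 0.05, where 31.6% of all genes had.

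Lipe stood at 9.23, 9.19 and 13.4 CPM in VWAT_HFD, against 15.4, 19.4 and 21.6 CPM in VWAT_SD. Every VWAT_HFD library was below every VWAT_SD library. The mean was 10.6 ± 2.41 CPM in VWAT_HFD and 18.8 ± 3.17 CPM in VWAT_SD (SD, n = 3 each), and Lipe fell by 0.83 on the log2 scale (SE 0.17, 1.77-fold lower, adjusted p = 0.00708 by edgeR's quasi-likelihood test). It passed under all 19 alternatives run, with log2 changes of -1.03 to -0.71 and adjusted p of 0.000258 to 0.0465. Without VWAT_HFD replicate 3, the log2 change was -1.03.

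Pnpla2 stood at 19.7, 19.6 and 23.1 CPM in VWAT_HFD, against 24.5, 29.4 and 27.1 CPM in VWAT_SD. Again no library of VWAT_HFD reached the level of any in VWAT_SD. Pnpla2 fell by 0.37 on the log2 scale (SE 0.0939, 1.3-fold lower, adjusted p = 0.0189). The call was lost with only the 6 VWAT libraries in the fit (adjusted p = 0.0709) and without VWAT_SD replicate 2 or 3 or VWAT_HFD replicate 1 or 2 (0.0629 to 0.1), and it held without VWAT_HFD replicate 3 (log2 change -0.46, adjusted p = 0.00291).

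Fabp5, a binding protein of many cell types that is also abundant in skin and macrophages, stood at 13.9, 13.7 and 6.02 CPM in VWAT_HFD, against 5.44, 6.05 and 7.72 CPM in VWAT_SD. The groups overlapped, since VWAT_HFD replicate 3 was within the range of VWAT_SD. The change was 0.81 on the log2 scale (SE 0.251, 1.75-fold, adjusted p = 0.0453). It passed in 4 of 19 alternatives and was lost in 15, including limma voom, the fit of VWAT libraries alone and the fits that left out each SWAT library in turn, with adjusted p up to 0.202. Without VWAT_HFD replicate 3 the log2 change was 1.11 (adjusted p = 0.000172). Reads that aligned at more than 1 place stood in a separate entry, 15 to 20.8% of a library, which was left out. Reads that Fabp5 shares with similar sequences elsewhere in the genome may therefore be missing from its counts, and their number is not known.

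The other 7 genes did not pass. Lpl stood at 1335, 1229 and 1341 CPM in VWAT_HFD, against 1061, 1222 and 1142 CPM in VWAT_SD, with no overlap (log2 change 0.19, 95% interval -0.02 to 0.4, adjusted p = 0.197). DESeq2's Wald test gave an adjusted p of 0.0456. Cd36 stood at 59.2, 37.5 and 17.5 CPM in VWAT_HFD, against 31.9, 41.8 and 26.9 CPM in VWAT_SD, with the widest relative spread among VWAT_HFD libraries (log2 change 0.19, interval -0.48 to 0.86, adjusted p = 0.721). Fabp4 had 126, 98.3 and 71.9 CPM in VWAT_HFD and 101, 106 and 94.8 CPM in VWAT_SD, and Mgll had 62.9, 52.2 and 36.7 CPM in VWAT_HFD and 49.5, 49 and 46.4 CPM in VWAT_SD. Both overlapped fully (log2 changes -0.02 and 0.07). In VWAT_HFD, 7 of the 10 genes (Cd36, Fabp4, Fabp5, Mgll, Agpat2, Dgat1 and Dgat2) were lowest in replicate 3, while Lpl, Pnpla2 and Lipe were highest there. The share of all genes lowest in that library was not counted. Also lowest in replicate 3 were the summed markers of mature fat cells (2.32 CPM), leukocytes (7.72 CPM) and mesothelium (1.79 CPM) and the mitosis genes (126 CPM). The summed mural markers were lowest in replicate 1 (118 CPM, against 119.7 CPM in replicate 3). The sum of 9 transcription factors of fat cell formation was lowest in replicate 2 (1074 CPM). The sum of 8 endothelial markers other than Tek and Ramp2 was lowest in replicate 3, at 42.8, 26.8 and 5.66 CPM in replicates 1, 2 and 3. In VWAT_SD that sum was 26.7, 29.7 and 12.5 CPM. The 8 genes were picked after values were seen; the sum of all 10 endothelial markers, of which Tek and Ramp2 make up most, was 259.5 to 305 CPM in VWAT_HFD and 262 to 317 CPM in VWAT_SD. The part of these cells in the levels of the 7 genes was not tested.

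The synthesis genes lay close together in VWAT. Dgat1 had 12.3, 12.9 and 10.9 CPM in VWAT_HFD and 10.8, 12.5 and 11.8 CPM in VWAT_SD, with a log2 change of 0.04 (interval -0.17 to 0.25). Agpat2 ranged over 8.35 to 11.1 CPM in VWAT_HFD and 8.78 to 10 CPM in VWAT_SD (log2 change 0, interval -0.28 to 0.29), and Dgat2 over 3.03 to 4.25 CPM in VWAT_HFD and 3.23 to 4.84 CPM in VWAT_SD (log2 change -0.23, interval -0.7 to 0.23). On the opposite strand Agpat2 overlaps Egfl7 by 64 bases and lies over its whole 11361 bases within Gm20532, which was not in the count table, and whether reads were assigned by strand is not stated in any label or header.

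In subcutaneous precursors, none of the 10 genes passed in edgeR's quasi-likelihood test, and 1.11% of all genes did. Cd36 had the largest change, and 5 genes had an unadjusted p under 0.05, where 14.9% of all genes had. By other tools, DESeq2's Wald test passed 1 gene (Cd36, adjusted p = 0.0329), where it passed 536 of all 14266 genes. Limma voom passed none of the 10, where it passed 12 of all genes. Libraries did not overlap for 7 of the 10 genes, 3 higher and 4 lower, where 21.8% of all genes did not overlap.

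Cd36, which helps fatty acids into the cell, stood at 218, 204 and 156 CPM in SWAT_HFD, against 88.6, 81 and 82.8 CPM in SWAT_SD. Every SWAT_HFD library was above every SWAT_SD library. The mean was 193 ± 32.3 CPM in SWAT_HFD and 84.1 ± 3.94 CPM in SWAT_SD (SD, n = 3 each), 2.29-fold apart, with a log2 change of 1.19 (interval 0.52 to 1.87) and an adjusted p of 0.0914. Adjusted p ran from 0.000944, with only the SWAT libraries in the fit, to 0.295, without SWAT_HFD replicate 2, and it was under 0.05 in 5 of 19 alternatives. Among these were the fits without VWAT_HFD replicate 1 (0.0463) or replicate 3 (0.00293), libraries that enter this comparison only through the shared spread and scaling. In the fit without SWAT_HFD replicate 2, and in each fit without a SWAT_SD library, none of all genes tested passed, Cd36 included. With only the SWAT libraries in the fit, 352 of all 13687 genes tested passed. The sum of the 8 endothelial markers was 15.1, 34.9 and 23.2 CPM in SWAT_HFD and 15.1, 13.3 and 6.46 CPM in SWAT_SD. All 10 endothelial markers summed to 391 to 480.3 CPM in SWAT_HFD and 372 to 456 CPM in SWAT_SD. The sum of 10 leukocyte markers was 13.3, 46.1 and 16.8 CPM in SWAT_HFD and 12.4, 13.9 and 14.3 CPM in SWAT_SD. Of the 10 leukocyte markers 8 had an unadjusted p under 0.05 in edgeR, where 14.9% of all genes had, and none passed. The part of these cells in the Cd36 level was not tested.

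Fabp4, another target of PPAR gamma, had 228, 173 and 274 CPM in SWAT_HFD and 150.4, 153 and 159.9 CPM in SWAT_SD, with no overlap. The log2 change was 0.54 (interval 0.15 to 0.94, adjusted p = 0.191). Pparg itself averaged 28.5 ± 1.64 CPM in SWAT_HFD and 32.4 ± 7.23 CPM in SWAT_SD. It averaged 12 ± 1.51 CPM in VWAT_HFD and 14.5 ± 2.41 CPM in VWAT_SD, and it passed as lower in VWAT than in SWAT on both diets. The part of Pparg in the levels of the 10 genes was not tested. Fabp5 had 3.68, 3.93 and 3.62 CPM in SWAT_HFD and 2.58, 2.27 and 3.02 CPM in SWAT_SD (log2 change 0.53, interval -0.09 to 1.15).

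Dgat1, which joins the last fatty acid to diacylglycerol, had 11.4, 11.9 and 12.7 CPM in SWAT_HFD and 14.5, 15.8 and 14.8 CPM in SWAT_SD. The 3 high-fat libraries were all below the 3 standard-diet libraries (log2 change -0.32, interval -0.54 to -0.11, adjusted p = 0.147), and the adjusted p was 0.0377 when library size was the only scaling. Lipe had 8.49, 7.8 and 6.8 CPM in SWAT_HFD and 9.13, 9.4 and 12 CPM in SWAT_SD (log2 change -0.41, interval -0.8 to -0.01, adjusted p = 0.319). Pnpla2 had 23.5, 24.8 and 22 CPM in SWAT_HFD and 27.6, 27.3 and 26.6 CPM in SWAT_SD (log2 change -0.22, interval -0.42 to -0.01, adjusted p = 0.315). Both lipases did not overlap between the diets in SWAT and did not pass. Lpl, at 1774, 1757 and 1634 CPM in SWAT_HFD and 1839, 1787 and 1825 CPM in SWAT_SD, was lower in each high-fat library by a small amount (log2 change -0.08, interval -0.29 to 0.13). Mgll, Agpat2 and Dgat2 overlapped, with log2 changes of -0.03, -0.07 and -0.25.

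Whether the diet changed the 10 genes differently in the depots was tested as an interaction. None of the 10 passed, and none of the 14266 genes did, with edgeR. Of all genes 1026 had an unadjusted p under 0.05, DESeq2's Wald test passed 35 and limma voom none, and without VWAT_HFD replicate 3 edgeR passed 135. By unadjusted p, 3 of the 10 genes were under 0.05, where 7.19% of all genes were, and neither DESeq2's Wald test nor limma voom passed any of the 10. Cd36 had an interaction of -1.01 on the log2 scale (VWAT change minus SWAT change, interval -1.95 to -0.06, adjusted p = 0.654), Fabp4 of -0.57 (adjusted p = 0.69) and Dgat1 of 0.36 (interval 0.06 to 0.66, adjusted p = 0.587). Lipe, with log2 changes of -0.83 in VWAT and -0.41 in SWAT, had an interaction of -0.42 (adjusted p = 0.802), so its call in VWAT is not shown to differ from SWAT. The same holds for Pnpla2 and Fabp5, with interactions of -0.16 and 0.28 (adjusted p = 0.891 and 0.944).

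**Figure D2:**
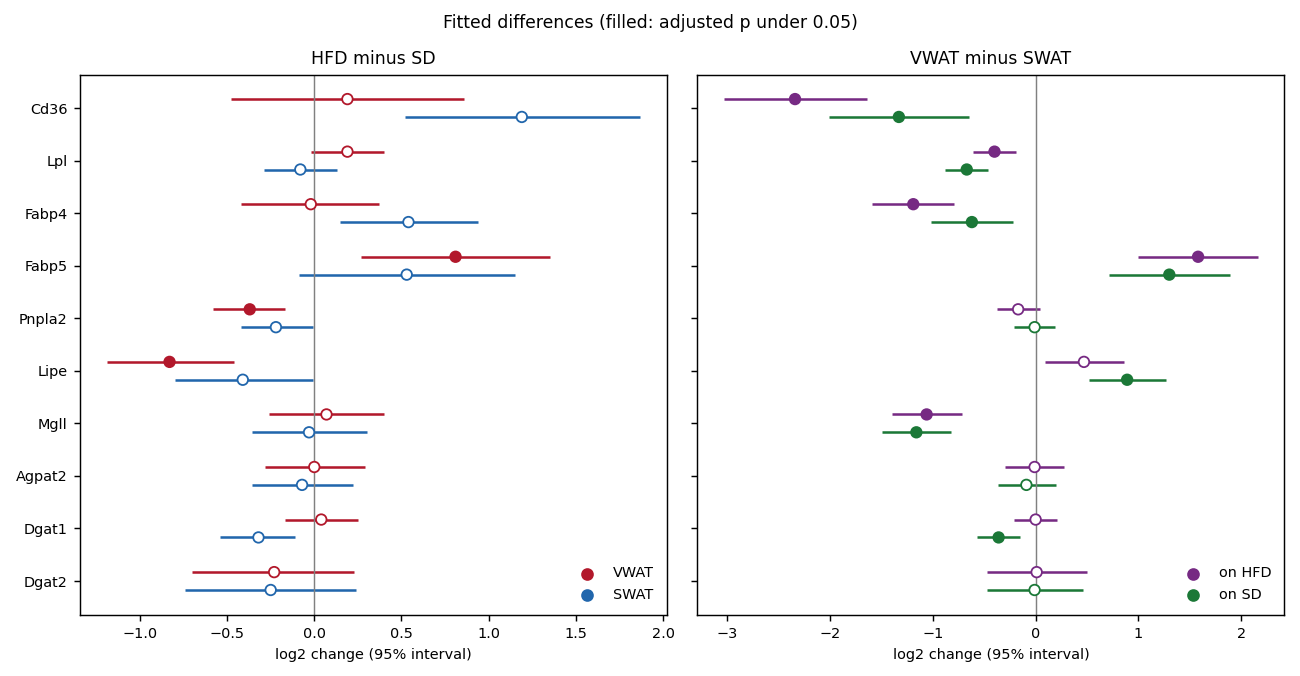
Fitted log2 differences of the 10 genes with 95% intervals, HFD minus SD in each depot (left) and VWAT minus SWAT on each diet (right). Filled points have an adjusted p under 0.05; in the diet panel they are Fabp5, Pnpla2 and Lipe in VWAT, and in the depot panel Cd36, Lpl, Fabp4, Fabp5 and Mgll are filled on both diets.

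Between the depots, on the high-fat diet 5 of 10 genes passed, 1 higher and 4 lower in VWAT, where 26.8% of all genes passed, 13.4% higher and 13.4% lower. With library size as the only scaling, which raised the median of all genes to 0.301, 6 passed on HFD, 3 higher and 3 lower. Under that scaling 6954 of all 14266 genes passed on HFD. On the standard diet 7 of 10 passed, 2 higher and 5 lower, where 25.7% of all genes passed, 13.2% higher and 12.5% lower. With library size alone (median of all genes 0.236) 5 passed on SD, 2 higher and 3 lower, where 5397 of all 14266 genes passed. The median size of the log2 difference, sign left aside, was 0.44 on HFD and 0.65 on SD for the 10 genes, beside 0.22 for all genes on each diet. Libraries of the depots did not overlap for 6 of the 10 genes on HFD, where 36% of all genes did not, and for 7 on SD, where 45.1% did not. Unadjusted p was under 0.05 for 6 genes on HFD (36.8% of all genes) and 7 on SD (35.8% of all genes). Cd36, Lpl, Fabp4 and Mgll were lower and Fabp5 was higher in VWAT on both diets. Bulk samples cannot tell fewer cells that express a gene from less RNA per cell, and these depot values carry that limit as the diet values do.

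Cd36 and Lpl were lower in visceral precursors. Cd36 was 5.05-fold lower in VWAT than in SWAT on HFD (log2 change -2.34, SE 0.322, adjusted p = 0.000102) and 2.51-fold lower on SD (log2 change -1.33, SE 0.314, adjusted p = 0.00641). Levels were 17.5 to 59.2 CPM in VWAT_HFD against 156 to 218 CPM in SWAT_HFD, and 26.9 to 41.8 CPM in VWAT_SD against 81 to 88.6 CPM in SWAT_SD. Without VWAT_HFD replicate 3 the change on HFD was -1.99. The sum of 8 endothelial markers, picked after values were seen, was 5.66 to 42.8 CPM in VWAT_HFD against 15.1 to 34.9 CPM in SWAT_HFD. In VWAT_SD it was 12.5 to 29.7 CPM, against 6.46 to 15.1 CPM in SWAT_SD. All 10 endothelial markers together, with Tek and Ramp2, were lower in VWAT on both diets. The sum of 10 leukocyte markers was 7.72 to 11.7 CPM in VWAT_HFD and 13.3 to 46.1 CPM in SWAT_HFD. On SD it was 11.9 to 19.6 CPM in VWAT and 12.4 to 14.3 CPM in SWAT. The part of these cells in the Cd36 difference was not tested.

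Lpl averaged 1302 ± 62.9 CPM in VWAT_HFD and 1722 ± 76.5 CPM in SWAT_HFD, and 1141 ± 80.6 CPM in VWAT_SD and 1817 ± 27.1 CPM in SWAT_SD (SD, n = 3 each). It was 1.32-fold lower in VWAT on HFD (adjusted p = 0.00696) and 1.59-fold lower on SD (adjusted p = 0.000154), and no libraries overlapped. The call on HFD was lost with library size as the only scaling (log2 change -0.11, adjusted p = 0.375) and with only the libraries compared (adjusted p = 0.0526).

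Fabp4 and Fabp5 differed in opposite directions between the depots. Fabp4 was 2.28-fold lower in VWAT on HFD (log2 change -1.19, adjusted p = 0.00029) and 1.54-fold lower on SD (log2 change -0.62, adjusted p = 0.0236). The call on SD was lost with library size as the only scaling (-0.4, adjusted p = 0.11) and without SWAT_SD replicate 2 or 3 or VWAT_SD replicate 1 or 3 (0.0583 to 0.0813). Fabp5 was 3-fold higher in VWAT on HFD (log2 change 1.58, SE 0.268, adjusted p = 0.000566) and 2.47-fold higher on SD (log2 change 1.3, SE 0.272, adjusted p = 0.00278). Within a library, Fabp5 counts per 100 Fabp4 counts were 11, 13.9 and 8.37 in VWAT_HFD and 1.62, 2.27 and 1.32 in SWAT_HFD, and 5.41, 5.72 and 8.14 in VWAT_SD and 1.72, 1.49 and 1.89 in SWAT_SD. Every VWAT library was above every SWAT library in this ratio, which does not depend on the scaling between libraries.

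**Figure D3:**
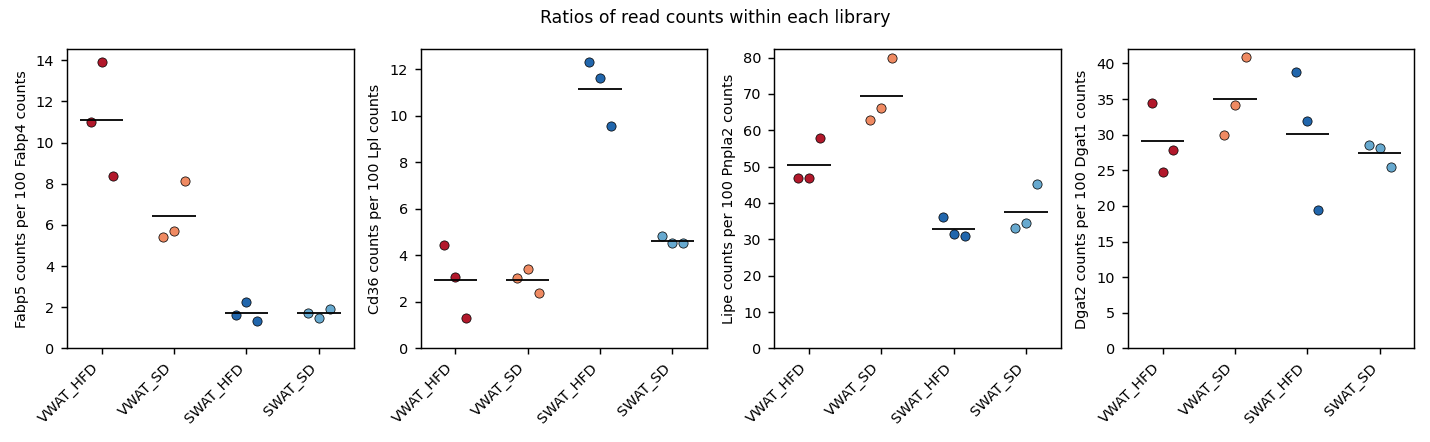
Counts of Fabp5 per 100 Fabp4, Cd36 per 100 Lpl, Lipe per 100 Pnpla2 and Dgat2 per 100 Dgat1, in each library of the 4 groups (linear axes from 0; lines are group means). Fabp5 per 100 Fabp4 lies between 5.41 and 13.9 in VWAT and between 1.32 and 2.27 in SWAT, and Cd36 per 100 Lpl is highest in SWAT_HFD.

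Cd36 counts per 100 Lpl counts were 12.3, 11.6 and 9.57 in SWAT_HFD and 4.82, 4.54 and 4.54 in SWAT_SD, with no overlap, while VWAT_HFD at 4.44, 3.05 and 1.31 overlapped VWAT_SD at 3.01, 3.42 and 2.36.

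The lipases differed in direction. Mgll was 2.08-fold lower in VWAT on HFD (adjusted p = 0.000174) and 2.23-fold lower on SD (adjusted p = 8.55e-05). Its SWAT levels were 102, 112 and 103 CPM on HFD and 109, 120 and 94 CPM on SD, all above the highest VWAT library. Lipe was 1.86-fold higher in VWAT on SD (log2 change 0.89, SE 0.173, adjusted p = 0.00157), and on HFD, at a log2 change of 0.47 (interval 0.09 to 0.86), it did not pass (adjusted p = 0.0683). With library size as the only scaling it passed (log2 change 0.76, adjusted p = 0.00442). Pnpla2 did not pass on either diet, with log2 changes of -0.17 on HFD and -0.01 on SD. Lipe counts per 100 Pnpla2 counts were 46.9, 46.8 and 58 in VWAT_HFD and 62.7, 66 and 79.8 in VWAT_SD, and 36.2, 31.4 and 30.9 in SWAT_HFD and 33, 34.4 and 45.2 in SWAT_SD. They were lower in all 3 VWAT_HFD libraries than in any VWAT_SD library. The antisense gene 4732471J01Rik overlaps Lipe over its whole span of 19184 bases and was not in the count table. Mgll overlaps Gm44005, Gm43999 and Gm44001 on its own strand and Gm26588 and Gm43937 on the opposite strand, all absent from the count table. Whether reads were assigned by strand is not stated, and the part of these overlaps in the Lipe and Mgll counts was not tested.

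Of the 3 synthesis genes, only Dgat1 passed, on SD, at 1.28-fold lower in VWAT (log2 change -0.36, adjusted p = 0.0135). That call was lost with library size as the only scaling (-0.14, adjusted p = 0.307), without SWAT_SD replicate 2 (0.0628) and without VWAT_SD replicate 1 (0.0682). On HFD its log2 change was 0 (adjusted p = 0.997). Scaled by library size alone it passed there as higher in VWAT (0.28, adjusted p = 0.0468). Agpat2 and Dgat2 had log2 changes between -0.09 and 0.01 on either diet.

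The wider pathway was read from 4 lists that hold none of the 10 genes: uptake and activation, lipolysis and its control, glycerolipid synthesis, and lipid droplet coats. Of 59 listed genes, 51 were tested. In the diet comparison of VWAT 10 passed, 5 higher and 5 lower, where 15.6% of all genes passed. Without VWAT_HFD replicate 3, 15 passed, 8 higher and 7 lower, where 4266 of all 14324 genes tested passed. In SWAT none passed in edgeR, and 8 of 51 had an unadjusted p under 0.05, where 14.9% of all genes had. DESeq2's Wald test passed 3 of the 51 there and limma voom none, where they passed 536 and 12 of all 14266 genes. In the interaction none passed, and 7 of 51 had an unadjusted p under 0.05, where 7.19% of all genes had. No gene of the lists passed the interaction by DESeq2's Wald test or limma voom, where 35 and 0 of all genes did.

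In VWAT the uptake and activation list had 2 genes higher and 2 lower of 16. Acsl3, which activates long-chain fatty acids, averaged 23 CPM in VWAT_HFD and 13.5 CPM in VWAT_SD (log2 change 0.77, adjusted p = 0.0011), and Acsl4, of the same family, had a log2 change of 0.42 (adjusted p = 0.0155), a call lost in 4 of 19 alternatives (library size alone and without VWAT_SD replicate 1 or 3 or VWAT_HFD replicate 2). Angptl4, a secreted inhibitor of lipoprotein lipase, stood at 159.7, 207 and 159 CPM in VWAT_HFD, against 278, 284 and 310.1 CPM in VWAT_SD, and fell by 0.73 on the log2 scale (adjusted p = 0.00619). Slc27a1, a fatty acid transport protein, fell by 0.73 (adjusted p = 0.0084). Acsl3, Angptl4 and Slc27a1 passed under all 19 alternatives.

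The lipolysis list had 1 gene higher and 2 lower of 14. Hilpda, a droplet protein that inhibits ATGL and is listed in the table under the older symbol 2310016C08Rik, stood at 22, 24 and 12.7 CPM in VWAT_HFD, against 9.2, 11.4 and 12.8 CPM in VWAT_SD. The groups overlapped through VWAT_HFD replicate 3, and the log2 change was 0.81 (adjusted p = 0.0154), or 1.04 without that library (adjusted p = 0.000145). Ces1d, a carboxylesterase with triglyceride hydrolase activity, averaged 10.3 CPM in VWAT_HFD and 18.8 CPM in VWAT_SD (log2 change -0.87, adjusted p = 0.0254), and Abhd6, a monoacylglycerol hydrolase, fell by 0.52 (adjusted p = 0.0361). Agpat4 and Lpin3, of glycerolipid synthesis, rose by 0.46 and 0.51 (adjusted p = 0.0144 and 0.0111), the 2 of 15 that passed in that list. Plin2, a droplet coat protein, stood at 70.9, 73.2 and 75.2 CPM in VWAT_HFD, against 97.9, 117 and 109 CPM in VWAT_SD (log2 change -0.56, adjusted p = 0.0184). Each of these 6 calls was lost without VWAT_HFD replicate 2 and in 1 to 6 further alternatives.

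**Figure D4:**
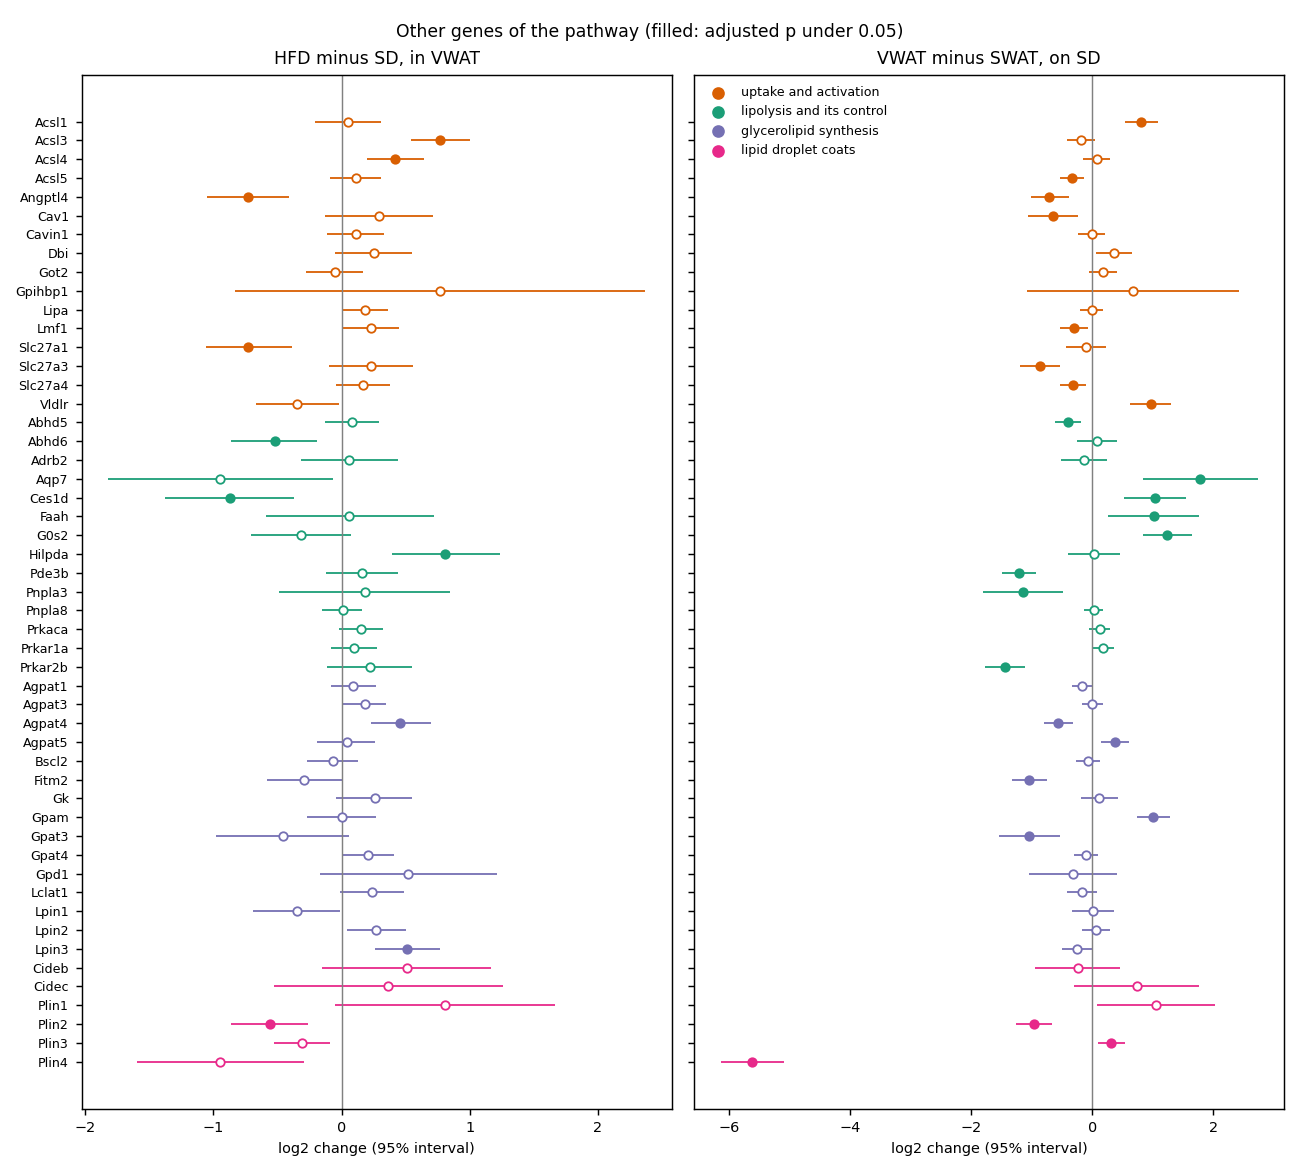
Log2 changes with 95% intervals of the 51 tested genes of the wider lists, HFD minus SD in VWAT (left) and VWAT minus SWAT on SD (right), coloured by list; filled points have an adjusted p under 0.05. Plin4 at -5.62 is the farthest from 0 on the right.

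Between the depots 21 of the 51 genes passed on HFD, 11 higher and 10 lower in VWAT, where 26.8% of all genes passed, and 24 on SD, 9 higher and 15 lower, where 25.7% passed. Scaled by library size alone, the counts were 29 on HFD, 21 higher and 8 lower, and 25 on SD, 15 higher and 10 lower, so the balance of directions on SD turned with the scaling. Under that scaling 6954 of all 14266 genes passed on HFD and 5397 on SD. The droplet coat gene Plin4 had the largest difference of them. It stood at 0.522, 0.582 and 0.645 CPM in VWAT_HFD, against 43.2, 27.7 and 25.4 CPM in SWAT_HFD, and at 1.43, 1.14 and 0.775 CPM in VWAT_SD, against 62.9, 52.7 and 49.8 CPM in SWAT_SD. It was 54.6-fold lower in VWAT on HFD (adjusted p = 5.13e-09) and 49.2-fold lower on SD (adjusted p = 3.03e-09). Plin2 was 2.07-fold lower in VWAT on HFD and 1.94-fold lower on SD (adjusted p = 8.41e-05 and 0.000173). Of the 6 coat genes tested, 0 were higher and 2 lower in VWAT on HFD, and 1 and 2 on SD. The median log2 difference of the 6 was 0.34 on HFD and 0.04 on SD. Plin1 did not pass, with means of 2.42 CPM in VWAT_HFD, 1.13 CPM in SWAT_HFD, 1.39 CPM in VWAT_SD and 0.682 CPM in SWAT_SD. Plin3, a coat protein of small droplets, was 128 CPM in VWAT_SD and 103 CPM in SWAT_SD (log2 change 0.31, adjusted p = 0.0384), a call lost in 7 of 19 alternatives.

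In the lipolysis list 3 genes were higher and 3 lower in VWAT of 14 on HFD, and 4 and 4 on SD. G0s2, an inhibitor of ATGL, averaged 55.5 CPM in VWAT_HFD and 20.9 CPM in SWAT_HFD, and 69.3 CPM in VWAT_SD and 29.5 CPM in SWAT_SD (log2 changes 1.42 and 1.24, adjusted p = 7.73e-05 and 0.000214). Abhd5, the activator of ATGL, averaged 59.5 CPM in VWAT_HFD and 82.2 CPM in SWAT_HFD, and its change on HFD was -0.47 (adjusted p = 0.00305, lost with library size as the only scaling). Pde3b, which breaks down cyclic AMP downstream of insulin, was 2.15-fold lower in VWAT on HFD and 2.32-fold lower on SD (adjusted p = 2.54e-05 and 1.06e-05). Prkar2b, a regulatory subunit of the kinase that acts on Lipe, was 2.43-fold lower in VWAT on HFD and 2.74-fold lower on SD (adjusted p = 3e-05 and 9.34e-06). Ces1d was higher in VWAT on SD (log2 change 1.04, adjusted p = 0.0052).

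In glycerolipid synthesis 3 genes were higher and 2 lower in VWAT of 15 on HFD, and 2 and 3 on SD. Gpam, which adds the first fatty acid to glycerol phosphate, averaged 45.5 CPM in VWAT_HFD and 25.7 CPM in SWAT_HFD, and 45.4 CPM in VWAT_SD and 22.4 CPM in SWAT_SD (adjusted p = 0.000288 and 5.33e-05). Gpat3, an enzyme of the same step listed as Agpat9, was 2.31-fold lower in VWAT on HFD and 2.05-fold lower on SD (adjusted p = 0.0021 and 0.00478). Fitm2, which helps fat droplets form, averaged 10.7 CPM in VWAT_HFD and 22.4 CPM in SWAT_HFD, and 13.1 CPM in VWAT_SD and 26.8 CPM in SWAT_SD (adjusted p = 5.52e-05 and 6.66e-05). The remaining named calls were Agpat5 (log2 changes 0.34 on HFD and 0.38 on SD), Gk, listed as Gyk (0.58 on HFD) and Agpat4 (-0.56 on SD).

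In the uptake and activation list 5 genes were higher and 3 lower in VWAT of 16 on HFD, and 2 and 6 on SD. Acsl1, a long-chain acyl-CoA synthetase, was higher in VWAT by 0.72 on HFD and 0.81 on SD (adjusted p = 0.000759 and 0.000272). Vldlr, a lipoprotein receptor, was higher by 0.97 on SD (adjusted p = 0.000351), and Acsl4 by 0.41 on HFD (adjusted p = 0.00857). Angptl4 was 2.36-fold lower in VWAT on HFD and 1.63-fold lower on SD, and Slc27a3 1.72-fold and 1.83-fold lower.

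**Figure D5:**
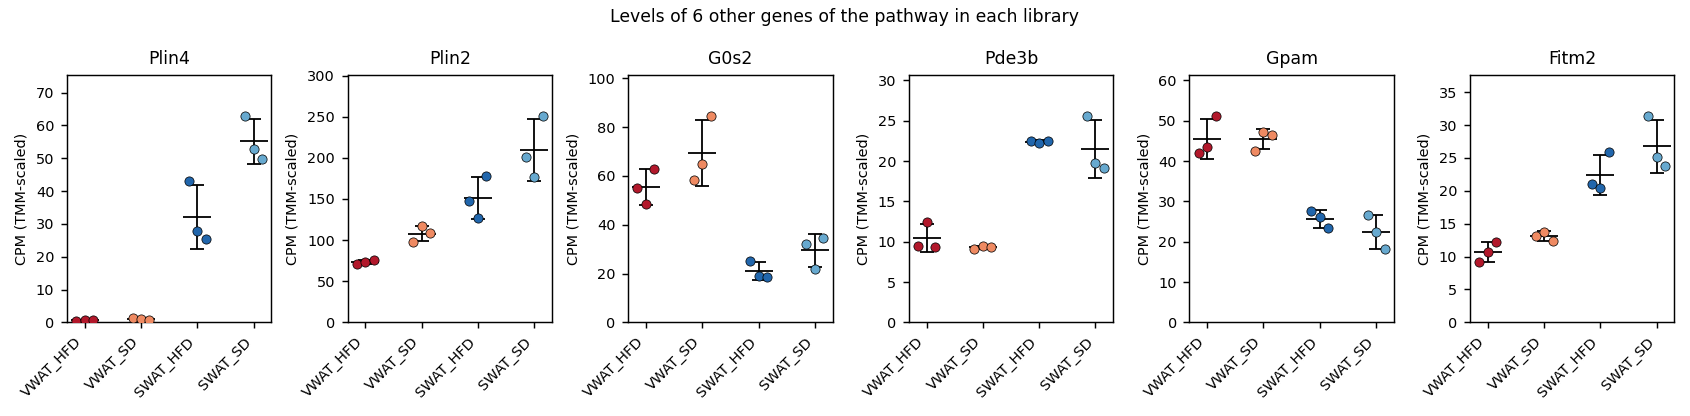
Levels in CPM (linear axes from 0) of Plin4, Plin2, G0s2, Pde3b, Gpam and Fitm2 in each library of the 4 groups, with the mean and SD. Plin4 is at or below 1.43 CPM in VWAT and at or above 25.4 CPM in SWAT, and G0s2 and Gpam are higher in VWAT.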

How the data were processed

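Polyadenylated RNA of 12 pools was read as 75 bp single ends from libraries that mark the strand with dUTP, per the labels' protocols. Reads were aligned with TopHat and counted with HTSeq on mm9, per the submitters' processing notes, without versions or the strand setting, which are not given in the sources used here. Raw read counts per gene were deposited by the authors in 1 table, and 3 entries that name no gene (3.53 to 5.57%, 1.71 to 1.95% and 15 to 20.8% of a library) were left out. The 10 genes and the wider lists were chosen with earlier results of these data known.

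Genes were filtered with filterByExpr by group (minimum count 10), and edgeR 4.0.16 in R 4.3.3 fitted the 4 groups together with TMM scaling and the robust quasi-likelihood test. The 5 contrasts compared the diets within each depot, tested the difference between these, and compared the depots within each diet. Adjusted p is Benjamini and Hochberg's over all 14266 genes tested, and "passed", "rose" and "fell" mean that it was under 0.05. CPM are TMM-scaled. The script was tested on simulated data. Alternatives were DESeq2 size factors, library size alone, no filter, DESeq2 1.42.0, limma 3.58.1 voom, only the libraries compared, a replicate block and each library left out. The wider genes named are, per list and comparison, up to 4 passing genes with the lowest adjusted p, or all where 5 or fewer passed.

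Same-numbered libraries of VWAT_SD and SWAT_SD deviated together, with correlations of 0.18, 0.18 and 0.4 across genes. A differently numbered pair, VWAT_SD replicate 2 with SWAT_SD replicate 1, reached 0.16. The labels state no pairing, so it is possible but not shown, and the main tests did not pair the samples. No 2 replicates agreed within sampling noise. Exact permutation of 3 libraries against 3 gives a p of at least 0.1 and was not applied. Symbols were used as the table gives them.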

Additional observations from a re-analysis of the deposited data

Results flagged for a closer look

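The Lpl levels of the diets did not overlap in either depot, and they lay in opposite directions. VWAT_HFD, at 1335, 1229 and 1341 CPM, was above VWAT_SD, at 1061, 1222 and 1142 CPM. SWAT_HFD, at 1774, 1757 and 1634 CPM, was below SWAT_SD, at 1839, 1787 and 1825 CPM. Of all genes, 33% did not overlap between the diets in VWAT and 21.8% in SWAT. The difference of the changes (VWAT minus SWAT) was 0.27 on the log2 scale (95% interval -0.03 to 0.56), and the test of that difference did not pass (adjusted p = 0.744 by edgeR's quasi-likelihood test). Neither change passed alone, at 0.19 in VWAT and -0.08 in SWAT.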

How the results depend on the processing

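Over 50 gene and comparison pairs of the 10 genes, 940 values were computed under the alternatives: 858 kept direction and side of the threshold, 30 lost the call, 9 gained it and 43 changed sign, all 43 in values that were not called. In VWAT, 3 genes passed the diet test, 1 with only the libraries compared and 1 to 3 with a library left out (1 without VWAT_SD replicate 2 or 3 or VWAT_HFD replicate 1 or 2). The wider lists gave 10, then 6 and 3 to 15, and all genes 2228, then 1246 and 757 to 4266. In SWAT, 0 passed, but 1 with library size alone, DESeq2's Wald test, only the libraries compared or the replicate block. With a library left out 0 to 1 passed (1 without VWAT_HFD replicate 1 or 3). In the same order the wider lists gave 0, then 1, 3, 1 and 1, and 0 to 3. All genes gave 159, then 263, 536, 352 and 247, and 0 to 615. In the interaction none of the 10 genes or of the wider lists passed with any library left out, where 0 to 135 of all genes did. Between depots, left-out ranges were 5 to 5 genes on HFD and 5 to 7 on SD, and 15 to 24 and 18 to 26 in the wider lists. For all genes these ranges were 2852 to 4366 on HFD and 2865 to 4411 on SD. The replicate block gave 7 genes and 22 of the wider lists on SD, where same-numbered libraries deviated together but a pairing is not shown. In the other 3 pairs of groups compared, same-numbered libraries correlated at -0.08 to 0.18 and the block moved all-gene calls in SWAT to 247, against 159, with Fabp5 lost in VWAT (adjusted p = 0.0751) and Cd36 gained in SWAT (0.0481). Library size alone shifted the median of all genes to -0.126 (VWAT diet), -0.177 (SWAT diet), 0.301 (depots on HFD) and 0.236 (depots on SD). Under it signs changed for Mgll (-0.04), Agpat2 (-0.11) and Dgat1 (-0.07) in the VWAT diet comparison, Pnpla2 (0.12) and Agpat2 (0.27) between depots on HFD, and Pnpla2 (0.21), Agpat2 (0.13) and Dgat2 (0.21) on SD. Under limma voom Agpat2 in the VWAT diet comparison gave 0 and Dgat1 on HFD -0.01, under the block Dgat2 on SD gave 0.01, and under DESeq2 size factors and Wald test Dgat1 on HFD gave 0 and -0.01. With a library left out, signs changed within -0.28 to 0.53 for Cd36, -0.24 to 0.16 for Fabp4, -0.12 to 0.25 for Mgll, -0.13 to 0.09 for Agpat2 and -0.02 to 0.1 for Dgat1 (VWAT diet); -0.12 to 0.06 for Mgll and -0.15 to 0.05 for Agpat2 (SWAT diet); -0.09 to 0.28, -0.06 to 0.16 and -0.21 to 0.19 for Mgll, Agpat2 and Dgat2 (interaction); -0.14 to 0.07, -0.05 to 0.07 and -0.22 to 0.17 for Agpat2, Dgat1 and Dgat2 (HFD); -0.08 to 0.05, -0.16 to 0.03 and -0.14 to 0.14 for Pnpla2, Agpat2 and Dgat2 (SD). The causes were not tested. The 3 pools a group limit what small changes can be told from the spread.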
